A study of Mus musculus with 2 samples.

Results

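The genes described here were 32 genes of the lysosome, of 32285 genes in the files: the proteases known as cathepsins with legumain, other acid hydrolases, and the membrane and lipid-handling proteins that work beside them. They were given as a list of names, drawn up with earlier results of these data known, and all 32 were found in both libraries. The study measured single cells of mouse colon lamina propria, sorted for CD11b, a myeloid integrin subunit encoded by Itgam. It compared mice with Runx3 deleted through Cre under the Lyz2 promoter, which acts in myeloid cells, with Runx3 fl/fl littermates, so the floxed allele was common to both groups, and the strain of these mice is not given in the sources used here. Each group was 1 library of cells pooled from male mice 8 weeks of age, with no treatment stated, 1 titled Runx3_fl and 1 titled Runx3. The titles do not say which mice carried Cre, so every direction below is between labelled libraries. Where 2 values are given together, the first is from the library labelled Runx3_fl and the second from the library labelled Runx3.

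Lysosomes are acidic organelles in which macromolecules taken up by endocytosis, phagocytosis or autophagy are broken down. Most of their hydrolases are made as precursors, carried from the Golgi by mannose 6-phosphate receptors and matured by cleavage in the acidic lumen, which a vacuolar proton pump maintains. In macrophages of the gut wall, which clear dying cells and microbes, these enzymes digest what is taken up and trim peptides and the invariant chain for antigen presentation. Many lysosomal genes carry an E-box near their start, known as the CLEAR element, that the related factors TFEB, TFE3 and MITF bind.

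The promoter windows held by RefSeq on GRCm38.p6, from 250 bases before to 50 bases after each gene's start, were searched for the core letters TCACGTG on both strands. A window was found for 27 of the 32 genes and not for Ctsb, Ctsh, Asah1, Ctse and Npc1. The letters stood in 6 of the 27 windows (22.2%), against 4.29% of 27025 genes with a window. The shorter CACGTG, which every TCACGTG contains, stood in 8 of the 27 (29.6%), against 8.09% of all genes with a window. Because CACGTG is its own reverse complement, a site written TCACGTGA matches on both strands. The 30 bases around the first TCACGTG on the strand of the gene are shown for the 6 genes, which include Lgmn, Ctsd and Ctsa, past 1.5-fold between the libraries in macrophages. Counted on both strands, the windows of Ctsa, Lamp1 and Gla held 4 matches each, that of Ctsd 3 and those of Glb1 and Lgmn 1 each. Each is written 5′ to 3′ on the strand of the gene, with the 7 matched letters in capitals.
Ctsa, chr2:164833749-164833778 on the plus strand: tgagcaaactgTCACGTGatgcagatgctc
Ctsd, chr7:142387908-142387937 on the minus strand: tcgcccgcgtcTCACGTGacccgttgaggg
Lamp1, chr8:13159088-13159117 on the plus strand: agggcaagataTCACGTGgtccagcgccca
Glb1, chr9:114401018-114401047 on the plus strand: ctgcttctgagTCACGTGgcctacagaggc
Lgmn, chr12:102439124-102439153 on the minus strand: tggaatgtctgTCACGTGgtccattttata
Gla, chrX:134601215-134601244 on the minus strand: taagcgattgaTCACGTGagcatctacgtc
In all 6 genes the match shown lay upstream of the RefSeq start, from position -228 in Gla to position -13 in Ctsa. By the gene spans of GENCODE M21, used below, the matches of Ctsa, Ctsd and Lgmn lay inside the gene. Those of Lamp1, Glb1 and Gla lay upstream of the gene by these spans too. From the RefSeq start, the match lay at -50, -49 and -62 in Lgmn, Glb1 and Lamp1, and at -99 in Ctsd. A match is a description of these letters and does not show that a factor was bound.

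The libraries held 12968 and 8953 cells with 146204416 and 75478164 UMIs, which are molecules each counted once, and 11885 and 8167 cells passed the limits on genes and mitochondrial UMIs, with median depths of 9573 and 5731 UMIs. Cells were placed in 8 classes by gate genes, which took in 49.9% and 50.7% of them. Cells passing the gates of more than 1 class (7.32% and 17.1%) were left out, as were cells passing none (42.8% and 32.2%), and 37 cell barcodes occurred in both libraries. The library labelled Runx3_fl held 28866 UMIs of Xist, a transcript of female cells, in 29.9% of its cells, against 12 UMIs in the library labelled Runx3, while both held the Y-linked Uty and Ddx3y, although the mice are described as male. The labelled CD11b sort was not borne out in every class, since Itgam was at 137 and 203 counts per 1e+06 UMIs (CPM) in macrophages but at 43.4 and 26.5 CPM in T cells and 9.14 and 6.35 CPM in type 1 dendritic cells (cDC1). In macrophages Runx3 itself stood at 157 and 247 CPM, so it was not the lower in the library that bears its name alone, and a 3′ count cannot show whether an internal exon was deleted.

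The summed level of the lysosomal genes was highest in macrophages, the cells with at least 1 UMI each of Csf1r and C1qa. UMIs of the 32 genes, summed over the 447 and 539 macrophages, came to 10822 CPM (10738 to 10907) and 14538 CPM (14434 to 14643), where the brackets give the exact 95% Poisson interval and cover counting error only. Monocytes, gated on Ly6c2, followed at 8043 and 10177 CPM, so macrophages were 1.35-fold and 1.43-fold above them. Neutrophils stood at 6179 and 8448 CPM, type 2 dendritic cells (cDC2) at 5770 and 6497 CPM and cDC1 at 5578 and 7924 CPM, the last from only 7 cells in the library labelled Runx3. The order of macrophages, monocytes and then neutrophils was the same in both libraries. In NK cells the sum was 2210 and 2679 CPM, in T cells 2569 and 3656 CPM and in Cd79a-gated cells, which were rich in plasma cell transcripts, 1936 and 3377 CPM. Within macrophages the share of a cell's UMIs taken by the 32 genes had a median of 1.07% and 1.35%, with middle ranges of 0.829% to 1.27% and 0.976% to 1.76% that overlapped. With cells of 2 gates kept there were 719 and 1083 macrophages, of which 168 and 413 also passed the neutrophil gate. The exclusion thus took out different shares of macrophages in each library. With these cells kept, the lead of macrophages shrank to 1.16-fold and 1.18-fold.

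**Figure D1:**
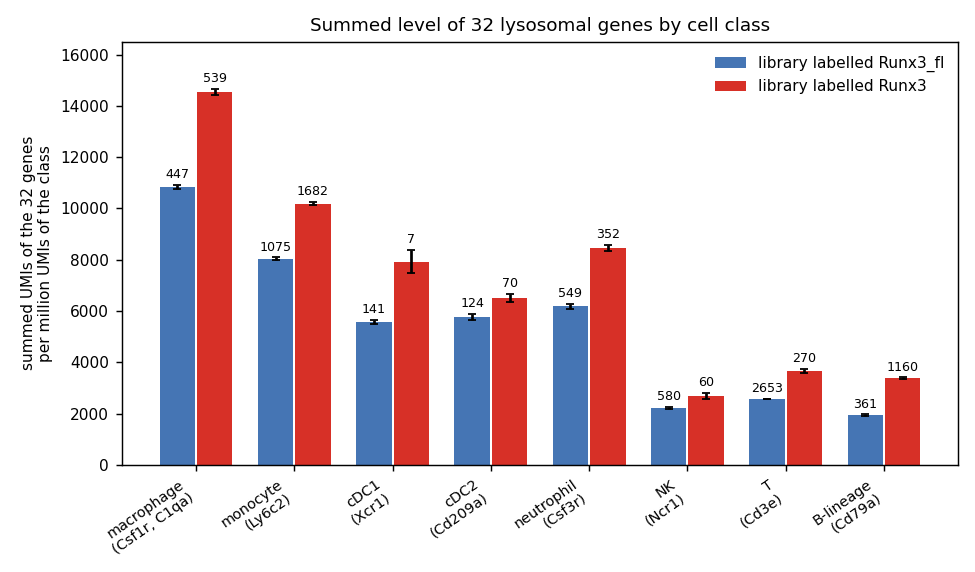
Bars give the summed UMIs of the 32 genes per 1e+06 UMIs (CPM) of each gated class, in the library labelled Runx3_fl (blue) and in the library labelled Runx3 (red), with exact 95% Poisson intervals of counting error and the number of cells above each bar. Macrophages are highest in both libraries, at 10822 and 14538 CPM, and lymphoid classes lowest, between 1936 and 3656 CPM.

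The gates were checked with markers that had no part in them. All 8 of 8 other macrophage markers, C1qb and Apoe among them, were at their highest in the macrophage class in both libraries, as were 6 of 6 neutrophil and 6 of 6 NK cell markers in theirs. Of 6 markers each, cDC1 led for 5 and 6, cDC2 for 4 and 4, T cells for 6 and 5 and Cd79a-gated cells for 6 and 6. Monocytes led for 5 and 4 of 7 of their markers, and in the library labelled Runx3 they also carried 6527 CPM of 6 neutrophil markers, against 389 CPM in the other library. They held 326 and 139 CPM of 6 NK cell markers and 683 and 694 CPM of 5 plasma cell markers as well. Of the 1075 and 1682 monocytes, 644 and 726 had a Csf1r UMI, so this class may take in other cells. Part of the low lymphoid level may be compared with free RNA through C1qb and C1qc, which lymphoid cells do not make. These were at 0.230% to 2.00% of their macrophage level in NK, T and Cd79a-gated cells. The summed lysosomal level there was 17.9% to 25.1% of that in macrophages, and 31 or 32 of the 32 genes exceeded the C1q share in each lymphoid class. Cells with UMIs of both Csf1r and C1qa had been left out of these classes, which can itself lower the C1q share. The neutrophil marker S100a8 was at 1.01% to 3.91% of its level over the whole library there. The part of free RNA in the lymphoid levels was not tested.

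Of the 32 genes, 19 had their highest level in macrophages in both libraries, where 3.98% of 17429 genes did so. The count by library was 20 and 19. Among these 19 were 7 of the 10 cysteine proteases (Ctsb, Ctsc, Ctsh, Ctsl, Ctss, Ctsz and Lgmn), the serine proteases Ctsa and Tpp1, and both acid phosphatases Acp2 and Acp5. The others were the hexosaminidase subunit Hexa, the lipid-handling genes Lipa, Asah1, Npc1 and Npc2, the membrane proteins Lamp1 and Cd68, and Grn. Monocytes were not the highest class for any of the 32, and were below macrophages for 28 of them in both libraries.

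**Figure D2:**
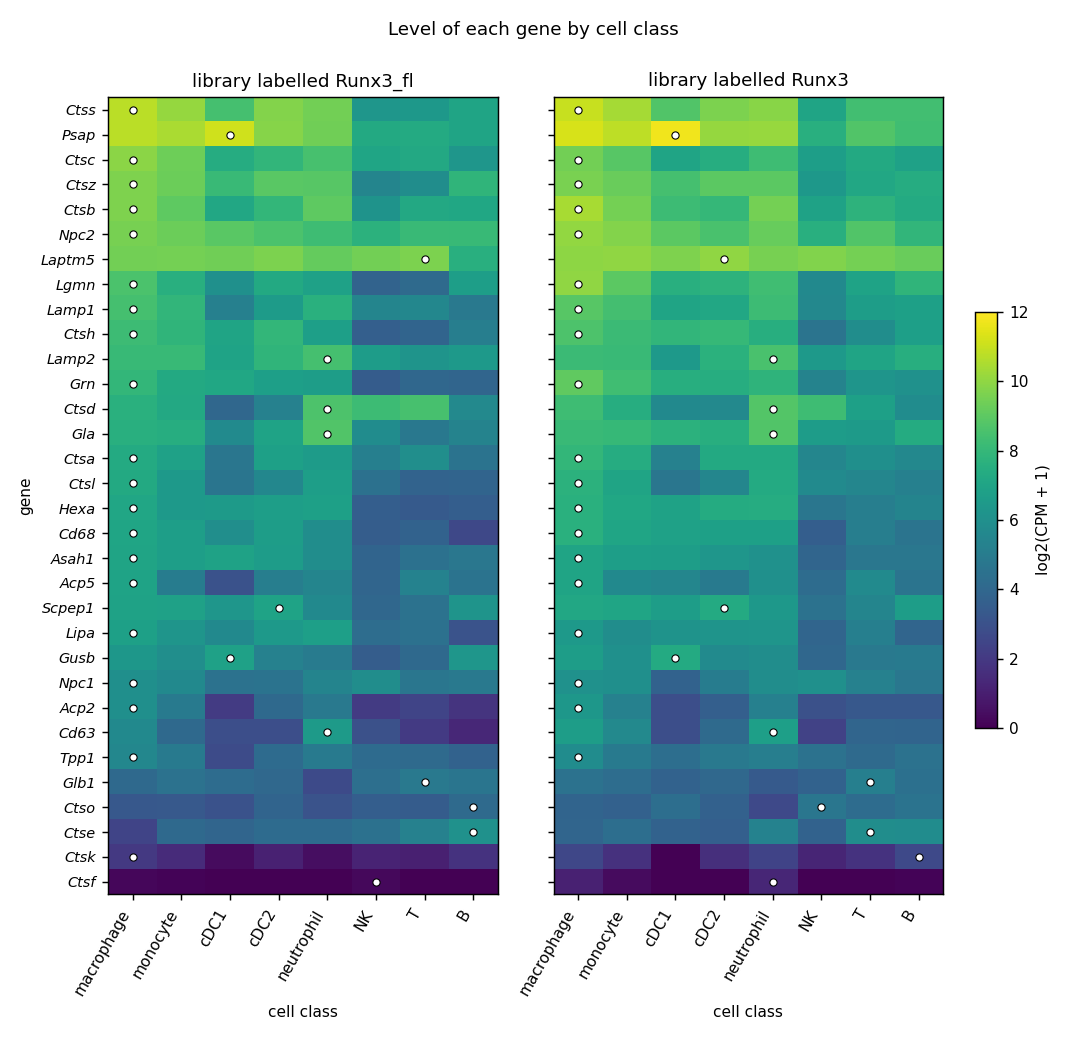
Colour gives log2(CPM + 1) of each of the 32 genes (rows, ordered by their macrophage level in the library labelled Runx3_fl) in the 8 gated classes (columns), with 1 panel per library and a white point on the highest class of each gene. The points fall in the macrophage column for 20 and 19 genes, and in the neutrophil column for Ctsd, Gla, Lamp2 and Cd63 in both panels.

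A few genes made up most of the macrophage signal. UMIs at the 3′ end count molecules and were not scaled by length, so levels of different genes are compared only as UMIs here. The 5 genes with most UMIs gave 55.8% and 54.9% of the sum. Cathepsin S (Ctss, chr3:95526786-95556403 in GENCODE M21 on GRCm38, as for all gene spans here), which cuts the invariant chain in antigen-presenting cells, was at 1742 and 2052 CPM in macrophages and at 1108 and 1327 CPM in monocytes. Prosaposin (Psap, chr10:60277627-60302597), the precursor of the saposins that assist sphingolipid breakdown, was at 1703 and 2471 CPM. Psap was still higher in cDC1, at 2274 and 3454 CPM. Ctss and Psap together gave about the same share of the sum in both libraries, 16.1% and 14.1% for Ctss and 15.7% and 17.0% for Psap. Npc2, a carrier of cholesterol out of the lysosomal lumen, reached 735 and 1077 CPM. Laptm5, a membrane protein of blood cell lysosomes, reached 701 and 1005 CPM and was spread evenly, between 574 and 788 CPM across every class of the first library except Cd79a-gated cells, at 192 CPM.

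The other 13 genes had another highest class in at least 1 library. Neutrophils led for Ctsd, Gla, Lamp2 and Cd63 in both. Cathepsin D (Ctsd, chr7:142375911-142388038), the main aspartic protease of the lysosome, was at 397 and 446 CPM in neutrophils against 196 and 307 CPM in macrophages. The alpha-galactosidase gene Gla was at 424 and 429 CPM in neutrophils, and at 191 and 279 CPM in macrophages. Lamp2, a structural membrane glycoprotein that also serves chaperone-mediated autophagy, was at 357 and 372 CPM in neutrophils and at 273 and 290 CPM in macrophages. In both libraries these 3 genes stood higher in neutrophils than in macrophages.

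Other classes led for the rest, in most cases dendritic or lymphoid cells. Gusb, the beta-glucuronidase, was highest in cDC1 (117 and 159 CPM), and Scpep1, a serine carboxypeptidase, in cDC2 (124 and 159 CPM). Glb1, the beta-galactosidase, was at a low level everywhere and highest in T cells, at 27.7 and 34.7 CPM. Cathepsin E (Ctse), an aspartic protease of endosomes, stood apart from the other cathepsins, since it was at 65.1 and 56.2 CPM in Cd79a-gated cells and 38.3 and 57.7 CPM in T cells but at only 4.48 and 13.9 CPM in macrophages. Ctso, Ctsk and Ctsf, cathepsins of the papain family, were at 25.03 CPM or lower in every class. Ctsf had 1 and 6 UMIs in macrophages and no ratio was read from it. Reads of Ctsl, Ctss, Ctsd and Glb1 could be shared with another gene annotated over them on the same strand, so their levels are uncertain.

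Between the libraries, the summed level in macrophages was 1.34-fold higher in the library labelled Runx3. The log2 ratio was 0.43, with a counting interval of 0.41 to 0.44. Genes as a whole were also higher there, with a median log2 ratio of 0.30 over 13149 genes with at least 10 UMIs, against 0.44 over the 31 lysosomal genes that reached this number. Relative to the median gene, the ratio of the sum was 0.13. The sum was higher in the same direction in each of the other 7 classes, from 0.17 in cDC2 to 0.80 in Cd79a-gated cells. Each group was 1 library, so no test could be run, and the difference between animals is not known. The macrophages of the 2 libraries also differed in depth, with medians of 12863 and 8371 UMIs.

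At least 1.5-fold higher in macrophages of the library labelled Runx3 were 8 of the 31 genes, where 32.5% of all genes tested were, and 0 were at least 1.5-fold lower, where 6.61% of all genes were. The count of higher genes, and how it stood to all genes, depended on the settings. With each cell thinned to 2000 UMIs 13 of 30 were higher (all genes 30.3%), and with Ly6c2-positive and Ly6c2-negative macrophages weighted equally 15 of 31 were (32.6%), so the share lay under that of all genes as first counted and above it with these settings. With the median gene set to a ratio of 0, 4 were higher (Lgmn, Ctse, Grn and Cd63, all genes 19.3%) and 2 lower (Ctsc and Lipa, all genes 13.9%). Without the cells that held an Xist UMI, which were 97 macrophages of the first library and 0 of the second, 7 of 31 were higher (all genes 33.8%) and 0 lower (6.52%), and the ratio of the sum was 0.40. Counting intervals lay above 0 for 23 genes, held 0 for 5 and lay below 0 for 3.

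**Figure D3:**
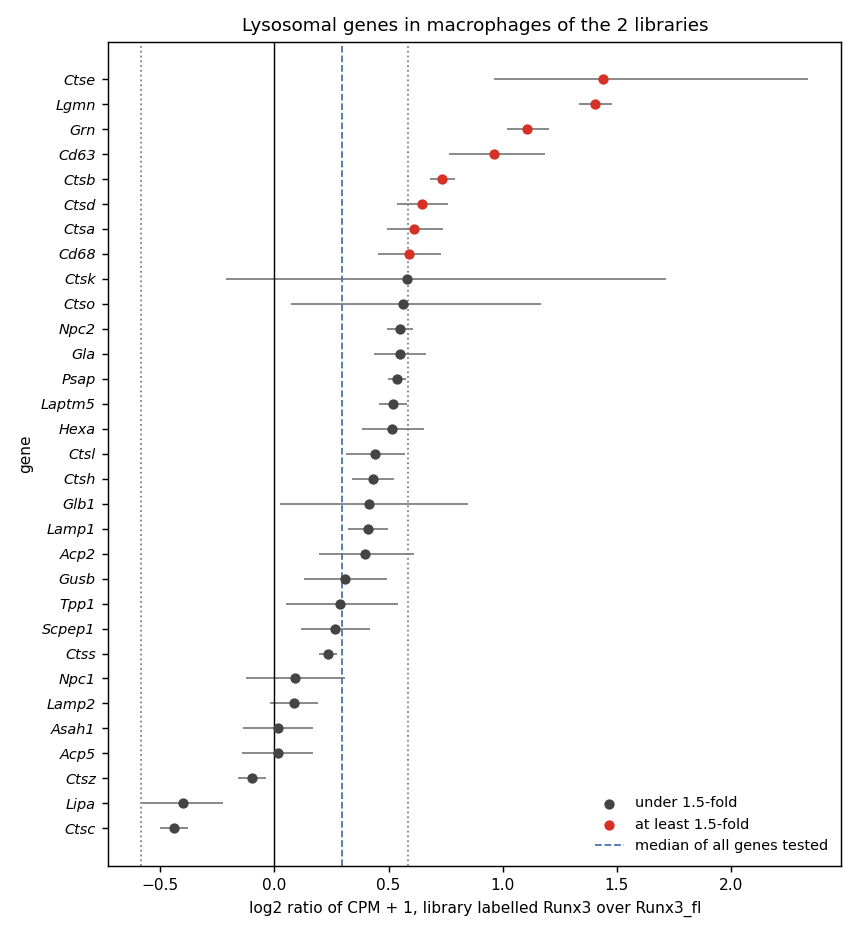
Points give the log2 ratio of CPM + 1 in macrophages, library labelled Runx3 over library labelled Runx3_fl, for the 31 genes with at least 10 UMIs, and lines the 95% counting interval of the CPM ratio, with dotted lines at 1.5-fold and a dashed line at the median of all genes (0.30). Ctse, Lgmn, Grn and Cd63 lie farthest to the right, and Ctsc, Lipa and Ctsz lie left of 0.

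Among the cysteine proteases, the largest difference was in legumain (Lgmn, chr12:102394084-102439813), an asparaginyl endopeptidase that matures several cathepsins. Macrophages held it at 386 CPM (370 to 402) and at 1023 CPM (996 to 1051), which gave a log2 ratio of 1.40 (1.33 to 1.48). In all of the other classes Lgmn was likewise the higher in the second library, with log2 ratios of 1.40 in monocytes (186 and 495 CPM) and 1.47 in neutrophils (116 and 323 CPM). Cathepsin B (Ctsb, chr14:63122462-63145923), a protease with both endopeptidase and dipeptidase action, stood at 819 CPM (796 to 843) and at 1365 CPM (1334 to 1398), for a log2 ratio of 0.74. Both were past 1.5-fold, but only Lgmn remained so with the median gene set to 0.

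Other cysteine proteases differed less or in the other direction. Cathepsin C (Ctsc, chr7:88278085-88310888), the dipeptidyl peptidase that activates serine proteases of granules, was the lower in the second library, at 951 and 701 CPM, for a log2 ratio of -0.44 (-0.50 to -0.38). Ctsz, a carboxypeptidase, was at 827 and 774 CPM (-0.10). Ctss differed by 0.24, Ctsh, an aminopeptidase, by 0.43 and Ctsl, an endopeptidase, by 0.44, but Ctss turns to the other side of 0 with the median gene set to 0. The cysteine proteases therefore did not differ as a block, with log2 ratios from -0.44 to 1.40 and a median of 0.44 over the 9 of them with at least 10 UMIs, Ctsf being too sparse.

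Both aspartic proteases were past 1.5-fold in macrophages. Ctsd stood at 196 CPM (185 to 208) and at 307 CPM (292 to 323), for a log2 ratio of 0.65 (0.54 to 0.76). Ctse rested on 26 and 71 UMIs, 4.48 and 13.9 CPM, with a log2 ratio of 1.44 (0.96 to 2.34). Of the serine proteases, Ctsa (chr2:164832873-164841032), which also protects neuraminidase and beta-galactosidase in a complex, was at 159 and 244 CPM (0.61). Scpep1 (0.26) and the tripeptidyl peptidase Tpp1 (0.29) were near the median of all genes and turn to the other side of 0 with that median set to 0.

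None of the 4 glycosidases, 5 lipid-handling genes and 2 phosphatases was past 1.5-fold. The glycosidases ranged from 0.31 (Gusb) to 0.55 (Gla). Psap and Npc2 had log2 ratios of 0.54 and 0.55, just inside the fold. Lipa, the acid lipase of cholesteryl esters, was lower, at 113 and 85.5 CPM, a log2 ratio of -0.40 (-0.58 to -0.23). Asah1, the acid ceramidase, and Acp5, the tartrate-resistant acid phosphatase, were nearly level, at 0.02 and 0.01, and with Npc1 (0.09) their intervals held 0. With the median gene set to 0, these 3 would be lower in the library labelled Runx3.

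Of the membrane proteins, Cd63, a tetraspanin of late endosomes, was at 51.0 and 100.1 CPM, a log2 ratio of 0.96 (0.76 to 1.18). Cd68, a heavily glycosylated protein of macrophage lysosomes, was at 131 and 197 CPM, a log2 ratio of 0.59 that lies on the 1.5-fold line. Lamp1 differed by 0.41 and Laptm5 by 0.52, while Lamp2 (0.09) had an interval that held 0 and turns to the other side of 0 with the median gene set to 0. Progranulin (Grn, chr11:102430315-102437048), a secreted precursor that is cut into granulins in the lysosome, stood at 246 CPM (233 to 259) and at 530 CPM (510 to 550), for a log2 ratio of 1.11 (1.02 to 1.20). Like Lgmn, Grn was also past 1.5-fold in monocytes (157 and 319 CPM) and in neutrophils (103 and 226 CPM).

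The genes with a TCACGTG near their RefSeq start were Lgmn at 1.40, Ctsd at 0.65, Ctsa at 0.61, Gla at 0.55, and Glb1 and Lamp1 at 0.41. All of them stood on the higher side in macrophages of the second library, also with the median gene set to 0. So did most members, with 28 of 31 above 0 (all genes 70.3%) and 21 of 31 above the median gene. At least 1.5-fold higher were 3 of the 6 genes with the letters and 3 of the 21 whose window lacked them (all genes 32.5%).

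Markers of macrophages moved with these values. The 8 macrophage markers outside the gate summed to 2652 and 5568 CPM in macrophages, with none at 0, and the 7 monocyte markers to 3159 and 3146 CPM. Lyz2, the lysozyme whose promoter drives Cre in the mice, was at 2935 and 946 CPM. The inflammatory genes Nos2, Il6 and Il12b were lower in the second library, at 72.7 and 13.7 CPM, 184 and 36.5 CPM, and 121 and 11.1 CPM. Leaving out macrophages that held any of these left 190 of 447 and 428 of 539. Markers of other cells differed in both directions, with 337 and 634 CPM for 6 neutrophil markers, 118 and 266 CPM for 5 plasma cell markers and 37.9 and 166 CPM for 6 B cell markers. For 6 mast cell or basophil markers the sums were 0.345 and 75.7 CPM, with 5 of 6 at 0 in the first library and none in the second. Sums that were lower in the second library were 146 and 68.5 CPM for 6 NK cell markers, 567 and 486 CPM for 6 cDC1 markers and 120 and 109 CPM for 5 innate lymphoid markers. The part of all these transcripts in the lysosomal differences was not tested.

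Resident gut macrophages come from Ly6C-high monocytes that lose Ly6C, so the genes were followed from monocytes to macrophages with a Ly6c2 UMI and then to macrophages without one. The summed level was 8043, 10875 and 10647 CPM along these steps in the library labelled Runx3_fl and 10177, 13953 and 18452 CPM in the library labelled Runx3. In the first the intervals of both kinds of macrophages overlapped, and in the second the sum was higher again in those without Ly6c2. Per cell, the median share of UMIs in macrophages with and without Ly6c2 was 1.08% and 1.02% in the first library. In the second it was 1.34% and 1.39%, with upper quartiles of 1.70% and 2.12%, so the median cells differed less than the sums. These last groups had 126 and 89 cells.

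Levels were higher at each of the 2 steps for 13 genes in the library labelled Runx3_fl (15.6% of all genes), for 24 in the library labelled Runx3 (18.9%), and for 12 in both (5.03%). The 12 were Ctsb, Ctsh, Ctsz, Lgmn, Ctsa, Tpp1, Hexa, Gusb, Lipa, Asah1, Acp5 and Cd63. With each cell weighted equally the count in both was 6, without monocytes rich in S100a8 and S100a9 it was 12, and without cells holding Xist it was 11. Ctse alone had a lower level at each step in both, at 16.1, 4.70 and 3.73 CPM and at 19.3, 14.6 and 9.001 CPM, where 5.84% of all genes did. Its level in Ly6c2-negative macrophages rested on 5 and 6 UMIs. In the library labelled Runx3 the interval of its log2 ratio to monocytes held 0 (-2.56 to 0.048).

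Cd63 had the largest ratio over the steps, with 16.1, 33.6 and 109 CPM in the library labelled Runx3_fl and 49.0, 78.5 and 245 CPM in the library labelled Runx3. On the CPM + 1 scale this was 6.44-fold and 4.91-fold from monocytes to Ly6c2-negative macrophages. Acp5 followed, at 32.1, 112 and 171 CPM and at 50.9, 117 and 189 CPM, or 5.20-fold and 3.66-fold. In the library labelled Runx3 the ratio of Ctsf was above that of Acp5 but rested on 3 UMIs in each class. Acp5 reached similar levels in both libraries. Lgmn was 2.76-fold and 2.66-fold higher, at 186, 347 and 517 CPM and at 495, 979 and 1320 CPM, so that its level in monocytes of the library labelled Runx3 was close to that in Ly6c2-negative macrophages of the other.

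Some genes, summed over the cells of each kind, differed between both kinds of macrophages mainly in the library labelled Runx3, a contrast that was not tested. Ctsb was at 816 and 832 CPM in Ly6c2-positive and Ly6c2-negative macrophages of the first library and at 1242 and 2187 CPM in those of the second. Grn was at 255 and 215 CPM in these groups of the first library and at 494 and 770 CPM in the second, and Psap at 1728 and 1621 CPM and at 2343 and 3327 CPM. In Ly6c2-negative macrophages 19 of 30 tested genes were at least 1.5-fold higher in the library labelled Runx3 (all genes 29.6%) and 0 lower (16.3%), while in Ly6c2-positive ones 5 of 31 were higher (33.5%) and 1, Ctsc, lower (6.73%). The median depth of Ly6c2-negative macrophages was 10793.5 and 5318 UMIs, and a shallower cell is more likely to show no Ly6c2 UMI, so the composition of this group and its levels cannot be told apart.

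**Figure D4:**
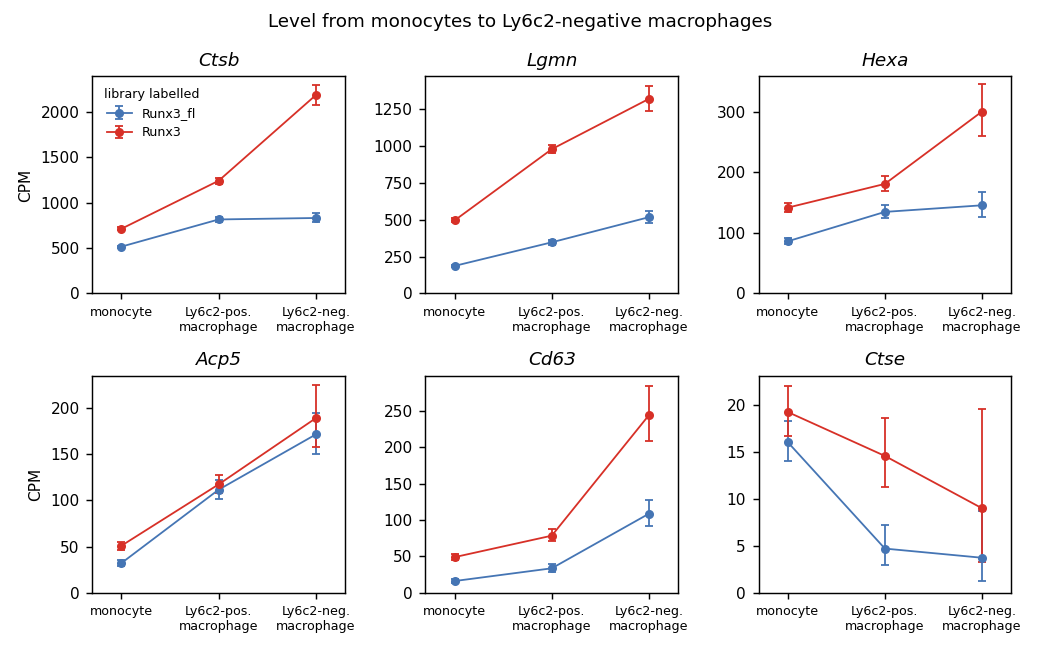
Each panel gives the CPM of 1 gene in monocytes, Ly6c2-positive macrophages and Ly6c2-negative macrophages of the library labelled Runx3_fl (blue) and of the library labelled Runx3 (red), with exact 95% Poisson intervals of counting error. Ctsb, Lgmn, Hexa, Acp5 and Cd63 are higher at each step in both libraries and Ctse is lower, but the intervals of both kinds of macrophages overlap for Ctsb, Hexa and Ctse in the library labelled Runx3_fl and for Ctse in the other, and only Acp5 has overlapping intervals between the libraries in both kinds of macrophages.

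Outside macrophages, the members past 1.5-fold were compared with the share of all genes in the same class. In monocytes 5 of 31 were higher (all genes 27.4%) and 0 lower (6.13%), and those above 100 CPM were Lgmn, Grn and Hexa, the last at 85.9 and 141 CPM. The other two were Cd63 at 16.1 and 49.0 CPM and Acp5 at 32.1 and 50.9 CPM. In neutrophils 15 of 31 were higher (39.6%) and 0 lower (7.39%), among them Npc2 at 304 and 599 CPM and Psap at 663 and 1120 CPM. Ctsh, Ctsl, Ctsa, Hexa and Cd68 were the others above 100 CPM there, besides Lgmn and Grn. In cDC2 5 of 30 were higher (26.6%) and 0 lower (10.3%), with Hexa, Lamp1 and Grn above 100 CPM and Tpp1 and Cd63 below it. Lgmn, Grn and Hexa were thus the genes past 1.5-fold in both monocytes and neutrophils at this level.

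In T cells and Cd79a-gated cells more of the members were higher than in the other classes. In T cells 20 of 31 were higher (25.2%) and 1 lower (15.9%), and in Cd79a-gated cells 19 of 31 were higher (33.8%) and 1 lower (21.0%). These levels are sums over cells, and the members' share of UMIs in the median T cell was 0.240% and 0.236%, so not higher. In the median Cd79a-gated cell this share was 0.192% and 0.302%, so higher in the library labelled Runx3. Ctss was at 84.3 and 332 CPM in T cells and at 128 and 326 CPM in Cd79a-gated cells. Psap was at 162 and 425 CPM in T cells, and Lgmn at 16.5 and 124 CPM. The levels of these myeloid-rich genes in T cells moved with transcripts of other cells, since 6 neutrophil markers summed to 48.7 and 307 CPM there and C1qb with C1qc stood at 0.607% and 1.504% of their macrophage level. Their part was not tested.

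Other genes above 100 CPM and past 1.5-fold in T cells were Ctsz, Npc2, Lamp1 and Lamp2. In Cd79a-gated cells, whose mix of B and plasma cells was not resolved, Laptm5 was at 192 and 609 CPM, Gla at 40.3 and 164 CPM and Lamp1 at 28.1 and 114 CPM, and Ctsc, Ctsh, Lgmn, Psap and Lamp2 were also higher. The 1 lower there was Gusb, at 78.3 and 29.6 CPM. In NK cells 11 of 30 were higher (19.8%) and 3 lower (13.8%), with Ctsb and Ctss above 100 CPM among the higher. The 3 lower were Ctse, Glb1 and Cd63, all under 21 CPM. In cDC1 12 of 30 were higher (23.0%) and 1 lower (34.1%), from 7 cells in the library labelled Runx3, with Ctsb, Ctsh, Lgmn, Gla, Psap, Lamp1 and Cd68 above 100 CPM among the higher. The 1 lower was Npc1, at 21.8 and 12.7 CPM.

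Across the 8 classes, Ctsd in T cells was the only one of the 32 genes above 100 CPM to be at least 1.5-fold lower in the library labelled Runx3. It stood at 366 and 112 CPM, for a log2 ratio of -1.70 (-1.87 to -1.55), while in NK cells it was at 297 and 312 CPM. Split by coreceptor after these values were seen, Ctsd was at 316 and 77.3 CPM in T cells with Cd4 UMIs alone, at 430 and 181 CPM in those with Cd8a UMIs alone and at 303 and 104 CPM in those with neither. It was thus lower in the library labelled Runx3 in each of these kinds of T cell. Other transcripts of the T cell class moved with it, with 2714 and 1617 CPM for 6 T cell markers, 1148 and 263 CPM for 6 NK cell markers, 1853 and 267 CPM for Gzmb and 1810 and 118 CPM for Gzma. Their part in the difference of Ctsd was not tested.

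The rest of the lysosomal machinery was set beside the 32 in macrophages. Of all genes tested, 32.5% were at least 1.5-fold higher and 6.61% lower, and the counts of each list are to be read against these. Of 26 other hydrolases, 10 were at least 1.5-fold higher and 1 lower, with a median log2 ratio of 0.42, close to the 0.44 of the members. The 2 past 2-fold were Manba, the beta-mannosidase, at 13.4 and 37.7 CPM, and Galns, a sulfatase, at 10.7 and 22.6 CPM. Of 11 other membrane proteins, 4 were higher and 0 lower (median 0.45). Rnaset2a and Rnaset2b are nearly identical copies, so their split of reads is uncertain. Of 8 sorting genes 4 were higher and 0 lower, with Igf2r, a mannose 6-phosphate receptor, at 11.7 and 28.1 CPM. M6pr, the other receptor of this kind and the more abundant, went the other way but within 1.5-fold, at 327 and 268 CPM (-0.28, interval -0.39 to -0.18).

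Genes of the vacuolar proton pump had a median log2 ratio of -0.02 over 16 genes, below that of all genes, and 3 of them were higher and 1 lower, again beside 32.5% and 6.61% of all genes. Atp6v0a1 was at 22.9 and 65.6 CPM (1.48), Atp6v1h at 163 and 286 CPM (0.81) and Atp6v1e1 at 323 and 198 CPM (-0.70). Of 8 protease inhibitors, 3 had at least 10 UMIs and none was past 1.5-fold. The cystatins Cst3 and Cstb, inhibitors of cysteine cathepsins, were at 985 and 957 CPM and at 617 and 634 CPM. Their ratios (-0.04 and 0.04) lay below the median of all genes.

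Transcription factor genes of the MITF family, whose products include those that bind the CLEAR element, went in opposite directions. Mitf was the lower in macrophages of the second library, at 576 and 187 CPM, for a log2 ratio of -1.62 (-1.73 to -1.52), and Tfec, a factor largely of macrophages, at 120 and 44.7 CPM (-1.40). Tfeb was higher, at 27.2 and 72.6 CPM, a log2 ratio of 1.38, and so was Tfe3, at 29.97 and 57.4 CPM (0.91). Monocytes had the same directions for Mitf (277 and 123 CPM) and Tfeb (31.0 and 81.3 CPM). Of all genes tested in macrophages, 15.3% were at least 2-fold higher and 2.69% at least 2-fold lower, as Mitf and Tfec were.

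**Figure D5:**
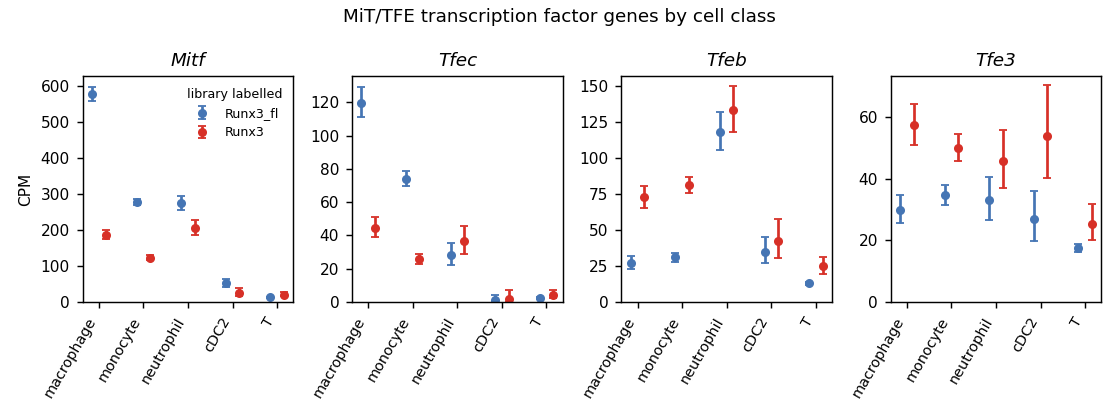
Points give the CPM of Mitf, Tfec, Tfeb and Tfe3 in 5 of the gated classes of the library labelled Runx3_fl (blue) and of the library labelled Runx3 (red), with exact 95% Poisson intervals of counting error. In macrophages and monocytes Mitf and Tfec are lower and Tfeb and Tfe3 higher in the library labelled Runx3, with intervals that do not overlap.

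Substrates of cathepsin C are serine proteases of lymphocyte and neutrophil granules. In macrophages, Gzma, a granzyme highest in NK cells, was at 150 and 23.0 CPM, and Gzmb at 36.2 and 18.3 CPM, alongside the lower Ctsc. The neutrophil protease gene Elane had 0 and 11 UMIs, Ctsg 0 and 29 UMIs and Prtn3 9.13 and 8.78 CPM. The granule gene Mpo was at 1.21 and 6.83 CPM, and Ctsw, a cathepsin gene highest in NK cells, at 9.30 and 2.54 CPM. Both granzymes thus stood lower and 2 of the 3 neutrophil proteases higher in the library labelled Runx3, next to the 6 NK cell markers in macrophages at 146 and 68.5 CPM and the 6 neutrophil markers given above. Their part in these values was not tested.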

How the data were processed

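The deposited files hold UMI counts per gene and cell, which the authors made with Cell Ranger 7.1.0 (file header) from 10x 3′ version 3 libraries and filtered to called cells. The submitters' processing notes name mm10 and Seurat 4. The counts were used as deposited. Cells with 200 to 6000 genes and at most 15% mitochondrial UMIs were kept. A macrophage had at least 1 UMI of Csf1r and 1 of C1qa. Other classes had at least 2 UMIs of their gate gene: Ly6c2 for monocytes (which also had no Cd3e, Ncr1 or Cd79a), Xcr1 for cDC1, Cd209a for cDC2, Csf3r for neutrophils, Ncr1 for NK, Cd3e for T and Cd79a for B-lineage cells. A macrophage could also pass the monocyte gate. Other cells passing 2 gates were left out, and this exclusion together with the limit of 6000 genes served against doublets, with no doublet caller run. The study's own clustering was not used, so classes can differ from its clusters.

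UMIs were summed per class and given as CPM with exact Poisson intervals. Ratios are log2 of CPM + 1, with exact conditional binomial intervals of the ratio without the added 1. Their level was 95%, and they reflect counting error alone. Genes needed 10 UMIs over both libraries. With 1 library per group no test was run and no replicate spread exists. The ratio step was tested on simulated data before use. Named genes were those at 1000 CPM or more in macrophages, those whose highest class was not macrophage, those past 1.5-fold in macrophages, or in another class at 100 CPM or more, and, in other lists, those past 2-fold or of highest CPM. Other genes named (Ctsc, Lipa, further members and the T cell split) were added to account for all 32 or after their values were seen. The members and lists were chosen with earlier results of these data known. Gene IDs matched GENCODE M21 for 32158 of 32285. Of the alternatives, 14 were planned and 3 were added after seeing the data. The scripts ran under Python 3.11.15 with pandas 2.3.3, numpy 2.4.6, matplotlib 3.10.9 and scipy 1.17.1.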

Additional observations from a re-analysis of the deposited data

Results flagged for a closer look

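Ctsd, the gene of cathepsin D, differed in opposite directions in 2 cell classes between the same libraries. Its log2 ratio, library labelled Runx3 over library labelled Runx3_fl, was -1.70 in T cells (2653 and 270 cells) and 0.65 in macrophages (447 and 539 cells). Each class had 1 library per group, so the difference between the classes was not tested. In the T cell class, 6 NK cell markers also stood lower in the library labelled Runx3 (263 CPM, against 1148 CPM), and their part was not tested. Ctsd overlaps another annotated gene on its own strand.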

How the results depend on the processing

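No paired analysis was possible because each group was 1 library and no replicate could be left out. No alternative reversed a sum, a lead or a gene past 1.5-fold. The summed log2 ratio in macrophages (0.43) was 0.46 with gates at 1 UMI, 0.49 with gates at 3 UMIs, 0.49 with cells thinned to 2000 UMIs, 0.13 with the median gene at 0, 0.39 without cells holding Nos2, Il6 or Il12b, 0.59 with both kinds of macrophages weighted equally, 0.40 without Psap and 0.40 without cells holding Xist (the last chosen after seeing the data). The 8 genes at least 1.5-fold higher (all genes 32.5%) were 13 after thinning (30.3%), 15 with both kinds of macrophages weighted equally (32.6%), 4 with the median gene at 0 (19.3%), 3 at 2-fold (15.3%), and 7 with a pseudocount of 10 CPM (10.6%). The 0 lower (all genes 6.61%) were 2 with the median gene at 0 (13.9%). All 8 kept their direction under all 11 alternatives for single genes, and 4 (Lgmn, Ctse, Grn and Cd63) stayed past 1.5-fold under all 11. Of all 352 ratios of single genes under alternatives, 92 moved beyond their counting interval, and 10 genes changed sign under at least 1.

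The 12 genes higher at each step were 6 with each cell weighted equally. The lead of macrophages over the next class (1.35-fold and 1.43-fold) was 1.63 and 1.66 with gates at 1 UMI, 1.28 and 1.41 with gates at 3 UMIs, 1.16 and 1.18 with cells of 2 gates kept, 1.66 and 1.38 after thinning, and 1.36 and 1.41 without cells holding Nos2, Il6 or Il12b. It was also 1.38 without Psap for the first library, and for the second 1.32 with each cell weighted equally and 1.41 without monocytes rich in S100a8 and S100a9 (added after seeing the data). The count of 19 genes highest in macrophages stayed within 13 to 21 under the alternatives, with 21 when cDC1 was left out (added after seeing the data). Thinning left out 616 and 1868 cells. At this depth, levels of Ctsf, Ctsk and Ctso rested on few UMIs, and the 7 cDC1 cells of the library labelled Runx3 limit every value of that class. With 1 library per group, a difference between libraries cannot be told apart from a difference between genotypes.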
